A study of Mus musculus with 8 samples.

Results

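The renin-angiotensin system genes were described in the perivascular adipose tissue that lies along the thoracic aorta, in mice with a Rictor deletion (RictoraP2KO) and in control mice. The members were chosen by name. Of 9 listed genes, 7 had a probe set that the platform annotation gave to that gene alone, out of 18782 genes with such a probe set: Agt, Ace, Enpep, Atp6ap2, Agtr1a, Agtr2 and Mas1. Each of these had 1 probe set, so no choice between probe sets was needed. Ren1 and Agtr1b lacked such a probe set and were not analysed here. The array data comprised 4 samples labelled RictoraP2KO and 4 labelled control, whose genotype is Rictorfl/fl, the unrecombined floxed allele. In the knockout, as its name gives it, Rictor, which encodes the defining subunit of mTOR complex 2, is deleted by Cre under the aP2 (Fabp4) promoter. The series title places the deletion in both brain and fat, so a difference in this fat need not start there. All mice were males of 17 to 22 weeks, fasted overnight and killed at 9 am, and no treatment was given. Whether each sample is a separate animal or a pool is not stated, so p-values reflect only how far the samples of a group scatter. The question named by the series title is how the deletion bears on clock genes and blood pressure, and the renin-angiotensin system is a main hormonal regulator of the latter.

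In this system the protease renin cuts angiotensinogen, the secreted product of Agt, to angiotensin I, which angiotensin-converting enzyme (ACE) trims to the active angiotensin II. Angiotensin II raises vascular tone through the type 1 receptor, while the type 2 receptor and MAS, which binds a shorter angiotensin, are known for opposing actions. Fat cells and stromal cells of fat can make angiotensinogen, and perivascular fat can release angiotensin peptides onto the vessel it surrounds.

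The promoters of the members differed in sequence in a way that the choice of members did not use. RefSeq windows of the 250 bases before an annotated start (GRCm38.p6) were available for 8 of the 9 listed genes, Agtr1a being the exception. They are shown for 2 members above and 2 members not above the array median. These were picked because the pairs differ in CpG content, so they do not stand for all members. The windows are Atp6ap2 at chrX:12587509-12587758 (plus strand), Ace at chr11:105967698-105967947 (plus strand), Agt at chr8:124569707-124569956 (minus strand) and Agtr2 at chrX:21484374-21484623 (plus strand). Each is written 5′ to 3′ and ends at the base before the start, and capitals mark CG dinucleotides and the letters TATAAA or, on the other strand, TTTATA.
Atp6ap2: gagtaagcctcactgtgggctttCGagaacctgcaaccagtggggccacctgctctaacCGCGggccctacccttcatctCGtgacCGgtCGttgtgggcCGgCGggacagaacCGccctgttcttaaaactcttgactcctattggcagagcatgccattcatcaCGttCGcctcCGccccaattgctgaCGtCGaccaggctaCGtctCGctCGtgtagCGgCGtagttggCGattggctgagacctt
Ace: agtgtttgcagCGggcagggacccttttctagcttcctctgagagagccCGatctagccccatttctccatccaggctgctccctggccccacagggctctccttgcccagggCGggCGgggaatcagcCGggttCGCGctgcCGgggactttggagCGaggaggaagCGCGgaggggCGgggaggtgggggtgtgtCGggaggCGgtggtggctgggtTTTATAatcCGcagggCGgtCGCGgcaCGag
Agt: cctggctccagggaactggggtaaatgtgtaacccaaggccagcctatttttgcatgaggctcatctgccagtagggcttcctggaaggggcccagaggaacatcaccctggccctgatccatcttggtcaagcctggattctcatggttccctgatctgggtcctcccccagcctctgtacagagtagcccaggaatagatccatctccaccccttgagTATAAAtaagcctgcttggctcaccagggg
Agtr2: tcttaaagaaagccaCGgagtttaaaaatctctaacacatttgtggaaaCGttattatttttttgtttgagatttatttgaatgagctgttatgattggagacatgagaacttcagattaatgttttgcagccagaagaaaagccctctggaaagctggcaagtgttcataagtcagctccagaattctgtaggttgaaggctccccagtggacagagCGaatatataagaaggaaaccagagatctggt

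The Atp6ap2 window held 20 CG dinucleotides, more than 82.1% of the 32851 windows of this length in the table. The Ace window at the annotated gene start held 19, more than 80.3% of all windows. A further Ace window, at a start 7241 bases into the gene, held 1. No CG was found in the Agt window, as in 7.87% of all windows, and 3 were found in that of Agtr2. The remaining counts were 6 for Enpep, 5 for Agtr1b, 2 for Mas1 and 1 for Ren1, beside a median of 6 over all windows. Enpep, also a member above the array median, was thus not rich in CG. Whether CpG content goes with signal was not tested.

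A TATAAA began 30 bases before the start of Agt, 29 before that of Ren1 and 31 before that of Agtr1b. In Ace and Enpep the same letters lay on the other strand, and 12.4% of all windows hold them on either strand. CACGTG, the canonical E-box that the clock factors BMAL1 and CLOCK bind, was in none of the members' windows and in 6.02% of all windows. AGGTCA, a core motif of nuclear receptors such as REV-ERB, was found on either strand only in the further Ace window, and in 14.0% of all windows. These matches describe letters in short windows and not sites in use.

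Values are log2 signals after RMA, the normalisation and summarisation of the probes of each set, and differences are RictoraP2KO minus control on that scale. The median of all 28371 probe sets was 3.76 in every array and the upper quartile was 6.17, so those are the marks against which a member was placed. Probe sets differ in how well they bind, so the signals of different members were not set against each other. Rictor itself did not read lower in the knockout arrays but higher, at 6.68 ± 0.08 against 6.54 ± 0.06 (SD, n = 4 each). The difference of 0.145 (SE 0.063) had a limma unadjusted p of 0.0479 and an adjusted p of 0.685. An exact two-sided permutation test over 70 label assignments gave p = 0.0571. All 4 RictoraP2KO arrays lay above the control mean, though the groups overlapped. Rictor was thus not lower and the deleted exons are not given, so every direction rests on the labels. The tissue carried its defining markers, with Adipoq at 10.9, Ucp1 at 11.7 and Cidea at 10.8 as means over 8 arrays, and 12 of 13 fat cell markers and 10 of 10 brown fat markers above the median. Lung epithelial markers stood apart in control replicate 2 (2.50 on the list mean of deviations, the others -0.48 to -0.28), neuron markers in control replicate 3 (1.24, the others -0.29 to -0.08) and skeletal muscle markers in RictoraP2KO replicate 2 (1.12, the others -0.23 to -0.06). Cardiac muscle markers were uneven in both groups, with 1.45 in RictoraP2KO replicate 2 and -1.11 in replicate 1 of the same group, and with 0.62 in control replicate 2 and -0.77 in control replicate 3. Values without these 3 arrays are given where they bear on a member.

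Of the 7 measured members, 4 stood above the array median, and each of these did so in all 8 arrays: Ace, Enpep, Atp6ap2 and Agtr1a. The substrate gene Agt lay close to the median, above it in 3 arrays and below it in 5. Agtr2 and Mas1, the receptors of the opposing arm, lay below it in all 8 arrays. The members nearest to the median were Agtr1a on the upper side, with a mean of 6.40, and Agt on the lower side, with a mean of 3.61. The same 4 members stood above the upper quartile by their mean, Ace and Atp6ap2 in all 8 arrays, Agtr1a in 7 and Enpep in 6.

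**Figure D1:**
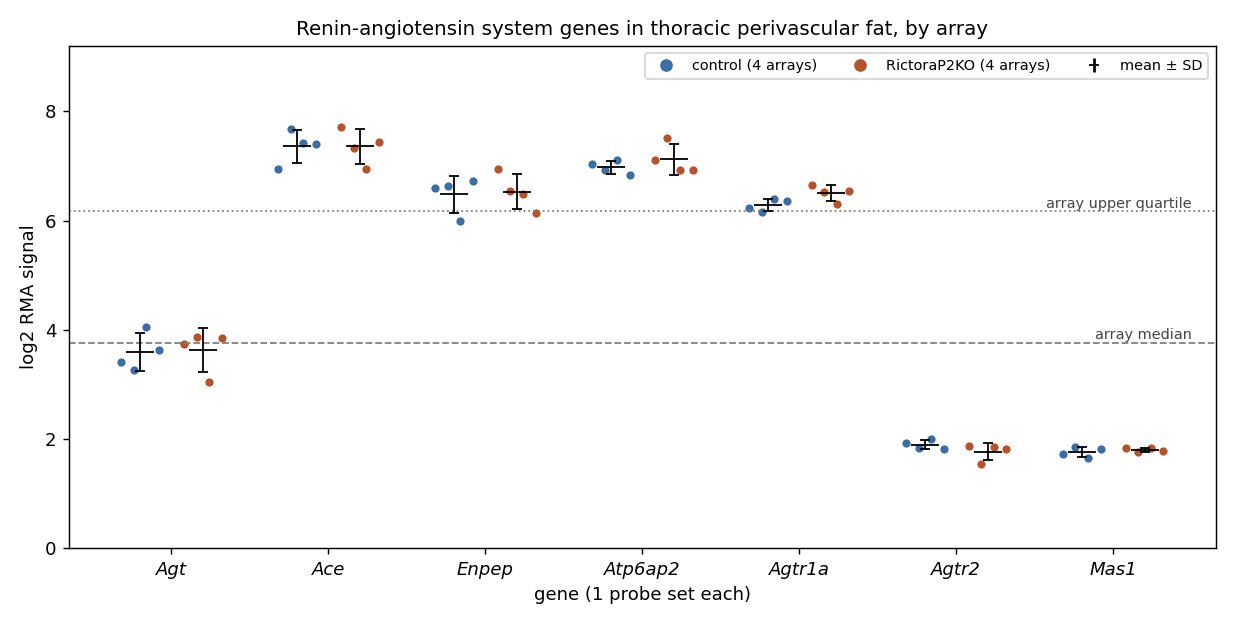
Log2 RMA signal of the 7 measured renin-angiotensin system genes in each of 8 arrays, control in blue and RictoraP2KO in orange, with the mean and SD of each group (n = 4) in black; the dashed line is the array median (3.76) and the dotted line the upper quartile (6.17). Ace, Enpep, Atp6ap2 and Agtr1a lie above the median in every array, Agt straddles it, and Agtr2 and Mas1 lie below it, with overlapping groups for every gene.

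No member differed between the groups at an adjusted threshold. Of 7 members, 0 had a limma adjusted p under 0.05, beside 0.00352% of all probe sets, and the smallest adjusted p was 0.668. At an unadjusted p under 0.05 the count was 1 of 7, Agtr1a, beside 7.27% of all probe sets. Agtr1a was higher, as 3.85% of all probe sets were at that threshold, and 3.42% were lower. The groups overlapped in all 7 members, where they did not overlap in 4.25% of probe sets. Differences ran from -0.13 for Agtr2 to 0.22 for Agtr1a with a median of 0.04, the median over all probe sets being -0.0033. An exact permutation test of each member, two-sided over 70 label assignments and unable to go below p = 0.0286, gave no member a p under 0.05.

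**Figure D2:**
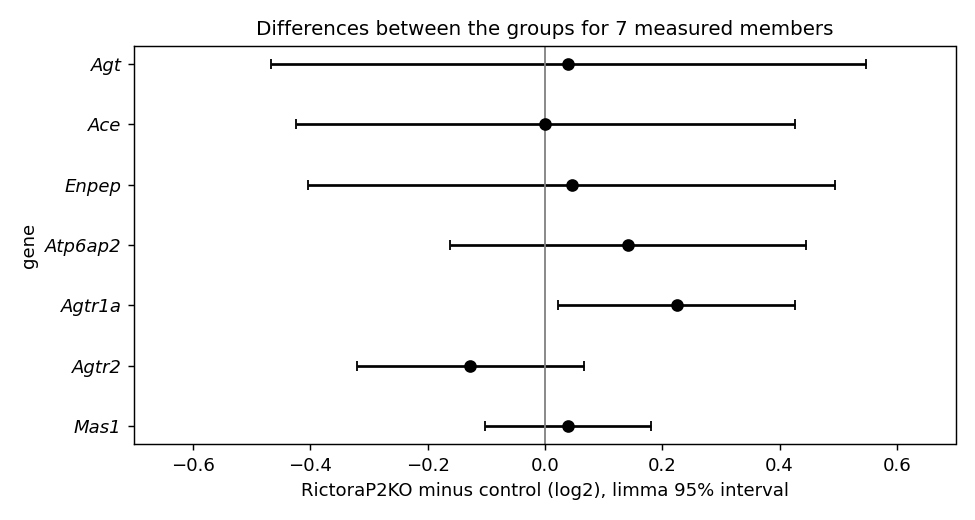
Difference in log2 signal, RictoraP2KO minus control, for the 7 measured members (points), with limma's 95% interval (bars; 4 arrays per group). The intervals of 6 members hold 0, and that of Agtr1a runs from 0.02 to 0.43.

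Agt, the gene of the precursor that all angiotensins come from, varied more between arrays than between groups. Its signals were 3.75, 3.88, 3.04 and 3.86 in RictoraP2KO replicates 1 to 4 and 3.41, 3.26, 4.06 and 3.64 in control replicates 1 to 4. The lowest and the highest of these, RictoraP2KO replicate 3 and control replicate 3, belonged to opposite groups, and 3 of the 4 RictoraP2KO arrays lay within the range of the controls. The means were 3.63 ± 0.40 and 3.59 ± 0.35 (SD, n = 4 each), a difference of 0.04 (SE 0.223; 95% interval -0.47 to 0.55; limma adjusted p = 0.982). Without RictoraP2KO replicate 3 the difference was 0.24, and without control replicate 2 it was -0.07. The array with the highest Agt was also the one in which neuron markers stood apart; their part in the result was not tested, and without the 3 arrays the difference was 0.03.

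Ace, which encodes the converting enzyme and is known for its abundance on endothelium, of the lung above all, had nearly equal means. Its signals were 7.72, 7.34, 6.95 and 7.44 in RictoraP2KO replicates 1 to 4 and 6.95, 7.68, 7.43 and 7.40 in the controls. The RictoraP2KO arrays thus reached from 6.95 to 7.72 and the controls from 6.95 to 7.68, so the spread within a group covered the whole range of the gene. The means were 7.36 ± 0.32 and 7.36 ± 0.30 (SD, n = 4 each), a difference of 0.0005 (SE 0.187; limma adjusted p = 0.999). Its 95% interval, from -0.42 to 0.43, spans folds from 0.745 to 1.34. Control replicate 2, where lung epithelial markers stood at 2.50, had the highest Ace signal of the controls, and their part in it was not tested. Without the 3 arrays that stood apart the Ace difference was 0.20 (SE 0.251; limma adjusted p = 0.969). RictoraP2KO replicate 1, the highest of all, did not carry that lung signal (-0.28).

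Enpep encodes aminopeptidase A, which converts angiotensin II to angiotensin III. The signals were 6.94, 6.55, 6.49 and 6.15 in the RictoraP2KO arrays and 6.60, 6.63, 5.99 and 6.73 in the controls. RictoraP2KO replicate 1 was the highest and control replicate 3 the lowest, and the other 6 arrays of both groups lay between 6.15 and 6.73. Group means were 6.53 ± 0.32 and 6.49 ± 0.34 (SD, n = 4 each), and the difference of 0.05 (SE 0.198; limma adjusted p = 0.976) turned to -0.14 without the 3 arrays that stood apart. Pericytes, the mural cells of capillaries, are known to carry aminopeptidase A. The mean of 8 pericyte markers was highest in RictoraP2KO replicate 1 (0.20) and lowest in control replicate 3 (-0.14), the arrays with the highest and lowest Enpep, but it was 0.02 in RictoraP2KO replicate 4, where Enpep was second lowest. The fibroblast (0.37 and -0.16), macrophage (0.41 and -0.28) and mast cell (0.54 and -0.41) list means were likewise highest and lowest in those arrays. The part of any of these cells in the Enpep values was not tested. In bulk tissue, fewer cells of a type and less RNA per cell cannot be told apart.

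Atp6ap2 encodes the (pro)renin receptor, which is also an accessory subunit of the vacuolar proton pump. It measured 7.12, 7.51, 6.93 and 6.92 in the RictoraP2KO arrays and 7.03, 6.94, 7.11 and 6.83 in the controls. RictoraP2KO replicate 2 stood above all others, and the remaining 7 arrays lay between 6.83 and 7.12. That array also had the highest list means of cardiac muscle (1.45), skeletal muscle (1.12), B cell (0.79), brown adipocyte (0.275) and endothelial (0.12) markers. Some pump subunits, such as Atp6ap1 (9.13) and Atp6v1a (8.45), were also highest in it, and others, such as Atp6v1f, were not. The part of any of these in the Atp6ap2 value was not tested. The Atp6ap2 means were 7.12 ± 0.28 and 6.98 ± 0.12 (SD, n = 4 each), with a difference of 0.14 (SE 0.134; limma adjusted p = 0.841) that was 0.01 without RictoraP2KO replicate 2.

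Agtr1a, which encodes the main type 1 angiotensin receptor of rodents, showed the member difference with the smallest p. Its signals were 6.66, 6.52, 6.31 and 6.55 in the arrays labelled RictoraP2KO and 6.24, 6.15, 6.39 and 6.37 in those labelled control. Of the RictoraP2KO arrays 3 lay above every control, and replicate 3 lay below 2 of the controls, while all 4 lay above the control mean. The means were 6.51 ± 0.14 and 6.29 ± 0.11 (SD, n = 4 each). The difference of 0.22 (SE 0.089), a fold of 1.17 with a 95% interval from 1.02 to 1.34, had a limma unadjusted p of 0.0328 and an adjusted p of 0.668. In the exact permutation test, two-sided, p was 0.0857. The sign was the same in all 8 omissions of 1 array, with differences from 0.18 to 0.29, and it was 0.21 (SE 0.124) without the 3 arrays that stood apart. The limma unadjusted p ran from 0.00718 (without RictoraP2KO replicate 3) to 0.0903 over the 8 omissions and was 0.151 without the 3 arrays. The limma adjusted p was 0.443 or more in each of the 8 omissions.

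Fibroblast markers, of which the matrix gene Mfap5 also resembled Agtr1a by array, were highest in RictoraP2KO replicate 1, as Agtr1a was, but lowest of their group in replicate 4, where Agtr1a was second highest. The list mean of 10 fibroblast markers ran from -0.13 to 0.37 in the RictoraP2KO arrays and from -0.16 to 0.01 in the controls, with 0 of 10 called. Without Mfap5 the fibroblast list mean differed by 0.13. The macrophage, mast cell, pericyte and adipocyte list means were also highest in RictoraP2KO replicate 1. The macrophage and mast cell means differed by 0.31 and 0.43 between the groups and, like Agtr1a, were lowest of the RictoraP2KO arrays in replicate 3, at -0.26 and -0.21. The part of these cells in the Agtr1a difference was not tested.

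Agtr2 encodes the type 2 receptor. Its signals ran from 1.54 to 1.87 in the RictoraP2KO arrays and from 1.82 to 2.00 in the controls, and RictoraP2KO replicate 2 held the lowest value, 1.54, where the others of its group began at 1.81. The difference was -0.13 (SE 0.085; limma adjusted p = 0.783), or -0.05 without that array. Mas1 encodes the MAS receptor and had the narrowest range of the members, 0.20. It ran from 1.77 to 1.84 in the RictoraP2KO arrays and from 1.65 to 1.85 in the controls, with a difference of 0.04 (SE 0.062; limma adjusted p = 0.909). No fold is given for either, because both lay below the array median in each array. For scale, the 8 measured kidney markers, of an organ outside this tissue, had means from 1.95 to 3.63. The mean of Agt, 3.61, lay just under that of Aqp2 (3.63) and above those of the other kidney markers, of which Nphs1 was highest at 3.14. These means set no floor, since probe sets differ in how well they bind.

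The members also differed in how far their signals scattered within groups. The residual SD was 0.37 for Agt, 0.31 for Ace and 0.33 for Enpep, wider than in 93.6%, 89.5% and 89.5% of the 1000 probe sets nearest in mean signal. For Agtr1a it was 0.13, wider than in 35.3% of such probe sets, and for Atp6ap2 it was 0.21, wider than in 76.8%. The 95% interval of the difference accordingly ran from -0.47 to 0.55 for Agt and from 0.02 to 0.43 for Agtr1a.

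No array was high or low in all members. RictoraP2KO replicate 1 had the highest signal of Ace, Enpep and Agtr1a. RictoraP2KO replicate 3 had the lowest signal of its group in Agt, Ace and Agtr1a. Control replicate 3 had the lowest Enpep and Mas1 signal and the highest Agt and Agtr2 signal.

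**Figure D3:**
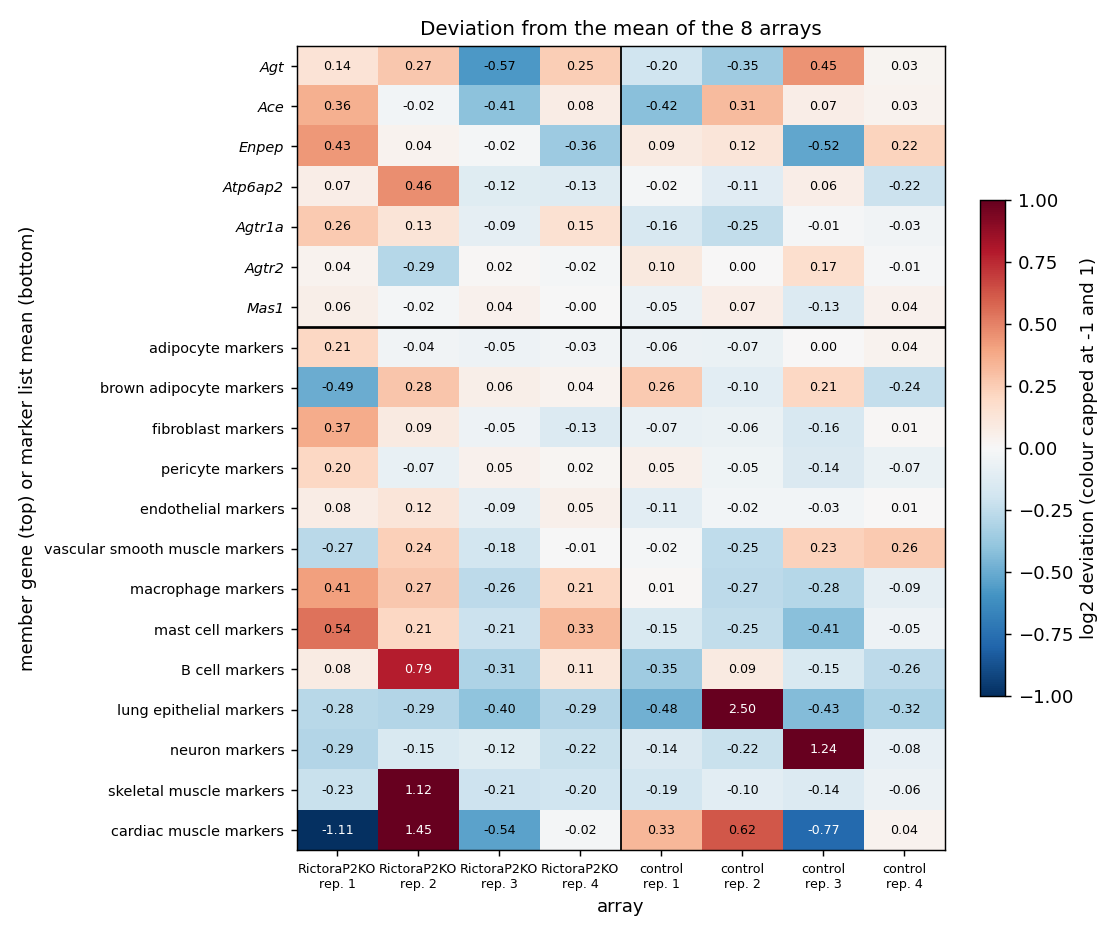
Deviation of each member's log2 signal from its mean over 8 arrays (rows above the line), and the mean of the same deviations over the genes of 13 cell type marker lists (rows below), for the 4 RictoraP2KO and 4 control arrays; numbers are the values and colours are capped at -1 and 1. The lung list reaches 2.50 in control replicate 2 and the neuron list 1.24 in control replicate 3, while Ace reaches 0.36 in RictoraP2KO replicate 1, whose lung value is -0.28.

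Genes whose signal followed a member most closely over the 8 arrays were taken, for the 4 members above the median, from 10156 other genes above the median. Likeness is Pearson's r over 8 arrays that share the groups and the uneven cell content, given as a description. For Agtr1a they were C1ra (r = 0.973), a complement protease, Mfap5 (0.972), a microfibril protein, and Frmd4b (0.960). Ace was followed by Pon1 (0.962), the lipoprotein-bound paraoxonase, Camk2n1 (0.955), an inhibitor of a calmodulin-dependent kinase, and Pcolce2 (0.949), an enhancer of procollagen cleavage. Enpep was followed by Thoc2 (0.964), of the mRNA export complex, Ndufb6 (0.964), a subunit of respiratory complex I, and Col6a1 (0.961), a collagen chain. The genes nearest to Atp6ap2 were Unk (0.967), Fubp1 (0.966) and Vgll3 (0.965). With group means removed, these 12 values of r lay between 0.917 and 0.990. The genes were chosen for the highest r over the same 8 arrays, so these values add no separate evidence.

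The wider pathway was followed in 5 lists holding 94 entries, of which 80 had a probe set of their own. Of these 80 genes, 0 passed the adjusted threshold, beside 0.00352% of all probe sets, and 5 had an unadjusted p under 0.05, which is 6.25% beside 7.27% of all probe sets. The groups did not overlap in 2 of the 80 (2.5%), beside 4.25% of all probe sets. The median difference was -0.0165. Of the 80, 62 lay above the array median. The values given next for single genes are differences that did not pass.

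**Figure D4:**
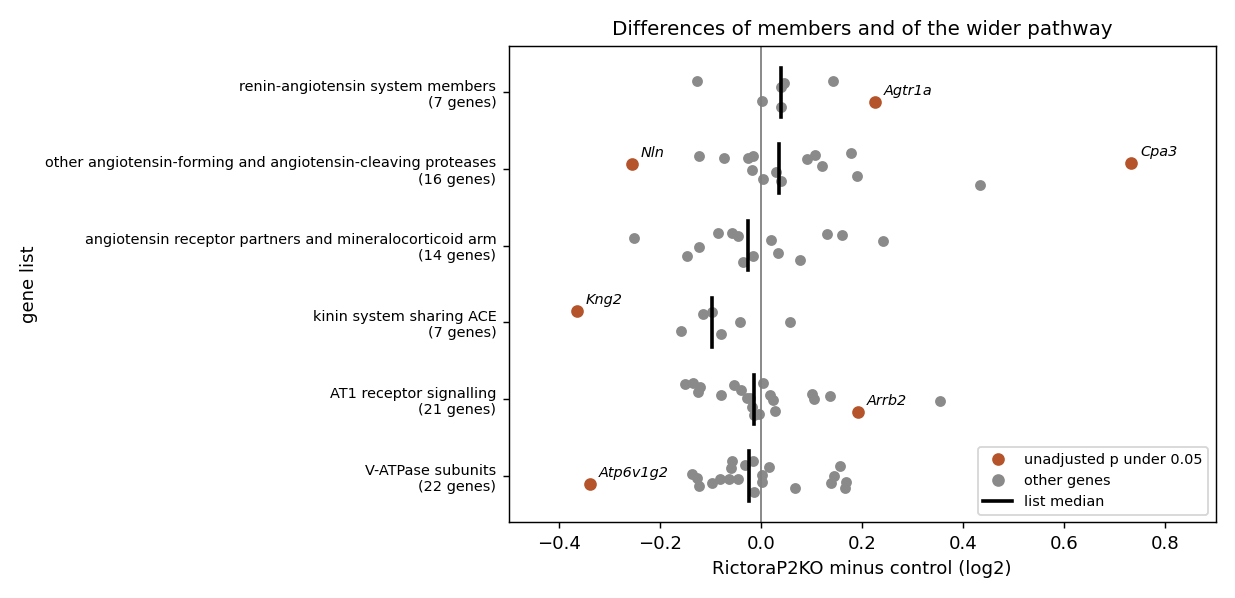
Difference in log2 signal, RictoraP2KO minus control, for each measured member and each gene of 5 wider lists (points, jittered in height), with the list median as a black bar and genes at an unadjusted limma p under 0.05 in orange. The list medians lie between -0.10 and 0.04, and Cpa3 lies farthest from 0, at 0.73.

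Other proteases that form or cut angiotensins showed no common direction, with 10 of 16 measured genes above 0 and a median difference of 0.03. Nln, neurolysin, which can cut angiotensin I to a shorter peptide, was 6.03, 5.84, 6.12 and 6.05 in the RictoraP2KO arrays and 6.27, 6.29, 6.32 and 6.19 in the controls. All RictoraP2KO arrays thus lay below all controls, as in 4.25% of probe sets in either direction. The difference was -0.26 (SE 0.073; limma adjusted p = 0.649; exact two-sided permutation p = 0.0286, the smallest the test can give), and it was -0.16 without the 3 arrays that stood apart.

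Cpa3 and Cma1 encode proteases of mast cell granules, a carboxypeptidase and a chymase, and chymase can make angiotensin II without ACE. Cpa3 measured 8.62, 7.92, 7.40 and 8.19 in the RictoraP2KO arrays and 7.58, 6.99, 6.96 and 7.66 in the controls. RictoraP2KO replicates 1, 2 and 4 lay above every control, and replicate 3 lay within the range of the controls. Its difference was 0.73 (SE 0.265, limma adjusted p = 0.667). It ran from 0.54 without RictoraP2KO replicate 1 to 0.94 without RictoraP2KO replicate 3, and was 0.45 without the 3 arrays that stood apart. Cma1 differed by 0.43 (SE 0.201; limma adjusted p = 0.709), and by 0.19 without those arrays. The mean of the other 7 mast cell markers was 0.47, 0.18, -0.19 and 0.32 in the RictoraP2KO arrays and from -0.36 to -0.05 in the controls, with 0 of 9 mast cell markers called. The part of mast cell number in these values was not tested. Lnpep, which binds angiotensin IV, had no probe set of its own and was not analysed here.

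**Figure D5:**
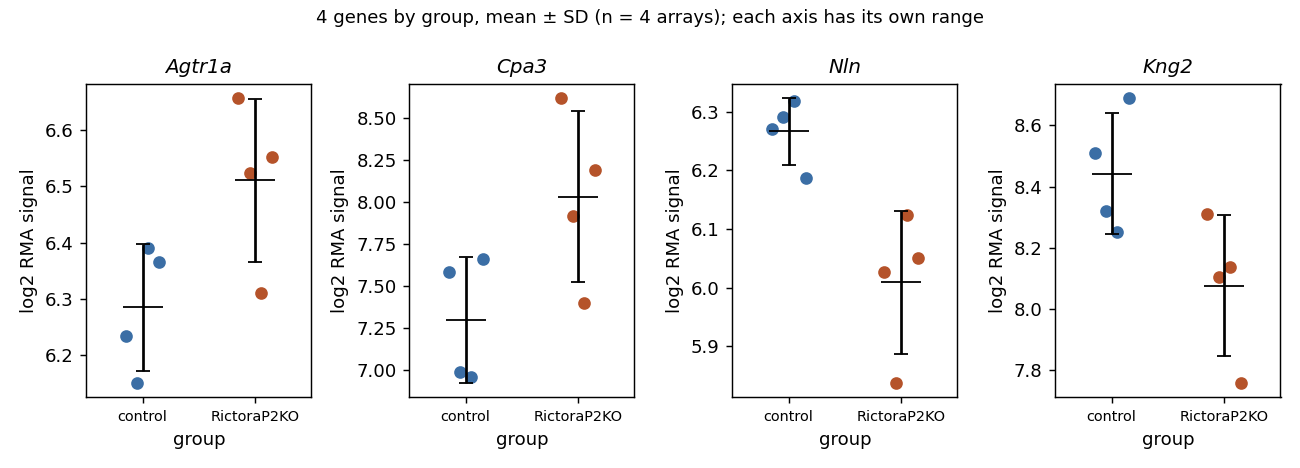
Log2 RMA signal of Agtr1a, Cpa3, Nln and Kng2 in each control (blue) and RictoraP2KO (orange) array, with mean and SD (n = 4) in black; each panel has its own axis range, which does not start at 0. Only Nln shows no overlap between the groups among these 4, and no gene passed the adjusted threshold.

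Partners of the angiotensin receptors and genes of the mineralocorticoid arm had 6 of 14 differences above 0 and a median of -0.03. Gabarap, which binds the type 1 receptor and aids its transport to the surface, was 10.72, 11.02, 10.79 and 10.87 in the RictoraP2KO arrays and 10.70, 10.67, 10.71 and 10.68 in the controls. The groups did not overlap, the difference being 0.16 (SE 0.071; limma adjusted p = 0.693), or 0.10 without RictoraP2KO replicate 2. Mrgprd, a receptor of the MAS family, differed by -0.15 (SE 0.078; limma adjusted p = 0.739) at a signal under the array median. Nedd4l, a ubiquitin ligase that limits sodium channels, differed by -0.25 (SE 0.170; limma adjusted p = 0.785) and by -0.38 without the 3 arrays that stood apart.

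The kinin genes are listed because ACE also inactivates bradykinin. Of 7 measured, 6 had differences below 0, with a median of -0.10 beside -0.0033 over all probe sets. Only 2 of the 7 had signals above the array median. Kng2, a kininogen gene, was 8.31, 8.10, 8.14 and 7.76 in the RictoraP2KO arrays and 8.51, 8.32, 8.25 and 8.69 in the controls, so that only RictoraP2KO replicate 1 and control replicate 3 crossed. The difference was -0.37 (SE 0.134; limma adjusted p = 0.668; exact two-sided permutation p = 0.0571), and -0.53 without the 3 arrays that stood apart. Its paralog Kng1 lay under the array median and differed by -0.16 (SE 0.083), and whether the probes of these close copies share RNA was not examined. Cpn1, the catalytic chain of the kinin-degrading carboxypeptidase N, differed by -0.12 (SE 0.069), also below the median.

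Genes that act after the type 1 receptor all lay above the array median, 21 of 21, and had 9 differences above 0 and 12 below, with a median of -0.015. Arrb2, β-arrestin 2, which uncouples and internalises the receptor, differed by 0.19 (SE 0.077; limma adjusted p = 0.668). Gna13, a G protein alpha subunit, differed by -0.13 (SE 0.077; limma adjusted p = 0.767). Cybb, the catalytic subunit of the phagocyte NADPH oxidase, differed by 0.35 (SE 0.223; limma adjusted p = 0.773), from 0.17 without RictoraP2KO replicate 1 to 0.58 without RictoraP2KO replicate 3. Macrophage markers were also highest in RictoraP2KO replicate 1, their list mean being 0.41, 0.27, -0.26 and 0.21 in the RictoraP2KO arrays and from -0.28 to 0.01 in the controls, with 0 of 10 called, and their part in the Cybb value was not tested.

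Subunits of the vacuolar proton pump, with which the Atp6ap2 product associates, had 9 of 22 differences above 0 and a median of -0.02. Atp6ap1, the other accessory subunit, differed by 0.14 (SE 0.099; limma adjusted p = 0.789). Atp6v1g2, a G subunit known from neurons, differed by -0.34 (SE 0.142; limma adjusted p = 0.668) and Atp6v1g1, its widely expressed counterpart, by -0.12 (SE 0.094; limma adjusted p = 0.808).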

How the data were processed

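Per the submitters' processing notes, the authors made the deposited log2 values with RMA in Affymetrix Power Tools 1.10.2; a genome build is not given in the sources used. The table holds 28371 probe sets for 8 arrays, with no count of molecules, and the number of arrays limits the precision. Sorted values are nearly equal between arrays, so a difference in total RNA would not be seen. The platform annotation gave 1 symbol to 21158 probe sets, several to 1881 and none to 5332, and only the first kind was used, with the highest mean over 8 arrays per gene.

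All probe sets were fitted with limma 3.58.1 in R 4.3.3 (lmFit, eBayes, two-sided, Benjamini-Hochberg over 28371 probe sets, threshold 0.05), with no filter and no covariate. Single values also had an exact two-sided permutation test. The code was tested on simulated data. A marker list mean is the mean deviation of its genes from their means over 8 arrays. Genes named were the members, the 3 of each wider list with the smallest p, and the 3 most like each member above the median. Members and lists were chosen with earlier results of these data known. Replicate numbers are in the labels. Over all probe sets, same-numbered arrays did not deviate together (correlations from -0.154 to 0.087), so no pairing was used. Alternatives were a filter on dim probe sets, renormalisation, other limma settings, a replicate block, and arrays left out. Sequences are from RefSeq, GRCm38.p6.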

Additional observations from a re-analysis of the deposited data

Results flagged for a closer look

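Of 74 groups of 4 arrays checked for 1 array far from the other 3, 7 were set apart, where chance sets apart about 1 in 20. Among members, Agt in RictoraP2KO replicate 3 stood at 3.04, with the other arrays of its group from 3.75 to 3.88. Agtr2 in RictoraP2KO replicate 2 stood at 1.54, with the others from 1.81 to 1.87. The adipocyte marker mean was 0.21 in RictoraP2KO replicate 1 and from -0.05 to -0.03 in the others of its group. The lung epithelial marker mean was -0.40 in RictoraP2KO replicate 3, with the others of its group from -0.29 to -0.28, and 2.50 in control replicate 2, with the other controls from -0.48 to -0.32. The neuron marker mean was 1.24 in control replicate 3 (the other controls from -0.22 to -0.08). The skeletal muscle marker mean was 1.12 in RictoraP2KO replicate 2 (the others of its group from -0.23 to -0.20).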

How the results depend on the processing

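Under each alternative run, 0 members and 0 of the wider pathway genes were called, and 4 members stood above the array median, by the upper quartile too. Over all probe sets 1 was called, 0 without dim probe sets, 0 with the replicate number as a block, 0 without the 3 arrays that stood apart, and from 0 to 5 when 1 array was left out. The block changed no member's call. With the block, the SE of the difference was 0.12 for Cpa3 and 0.096 for Cma1, with a limma adjusted p of 0.82 for each. In the main fit these SEs were 0.265 and 0.201. Leaving out 1 array moved the difference of Agt from -0.071 to 0.24, of Ace from -0.14 to 0.14 and of Enpep from -0.12 to 0.17, so their signs are not settled. With array weights Ace was -0.071 and Enpep -0.020, and without the 3 arrays Enpep was -0.14; the cause was not tested. The differences of Agtr1a, Agtr2, Mas1 and Atp6ap2 kept their sign throughout. The single member under an unadjusted p of 0.05, Agtr1a, was no longer under it with limma-trend, with the replicate block, without the 3 arrays and in 5 of 8 omissions of 1 array. Alternatives that average several probe sets changed nothing, since each member has 1. Leaving out the dim probe sets removes Agt, Agtr2 and Mas1. No counts or background signal were used, so it was not tested whether the Agt signal and the low Agtr2 and Mas1 signals exceed background.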

Other observations

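Agt lay below the array median by its mean, so the rule on like genes did not cover it, and its likeness was looked up after its values were seen. Over the 8 arrays the genes above the median that followed it most closely were Trpv4 (r = 0.976), a calcium channel, Procr (0.968), the endothelial protein C receptor, and Cxcl13 (0.955), a chemokine that attracts B cells. Cxcl13 ran from 6.65 to 8.82 over the arrays. These values are a description over 8 arrays and were taken from 10157 genes.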
